A study of Mus musculus with 2 samples.

Results

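The 7 genes of the photoreceptor outer segment disc and axoneme followed here were Prph2, Rom1, Prom1, Cdhr1, Rp1, Rp1l1 and Tulp1, measured in single cells of mouse retina. They were taken by symbol, and all 7 were found among the 32285 genes of the count matrices. Retinas of mice exposed to short-wavelength light, or to full-spectrum white light, from postnatal day 14 for 2 weeks were dissociated and sequenced by 10x Genomics 3′ single-cell RNA sequencing. The series asks how short-wavelength light affects developing retinal cells. Each light condition had 1 library of all retinal cells, and strain, sex and the number of mice in each library are not given in the sources used here. Differences between lights are therefore differences between 2 libraries, and no p-value was computed for them.

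The outer segment is a modified cilium packed with membrane discs that hold the phototransduction proteins. Prph2 and Rom1 are tetraspanins of the disc rim that assemble with each other, and Prph2 is needed for discs to form. Prom1 and Cdhr1, a pentaspan protein and a protocadherin, lie at the base of the outer segment where new discs are made. Rp1 and Rp1l1 are doublecortin-domain proteins of the axoneme that runs along the discs, and Tulp1 is a tubby-like protein needed for transport of proteins to the outer segment. Rod discs are mostly closed off inside the cell membrane, whereas cone discs stay continuous with it.

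Counts are unique molecular identifiers (UMIs), 51681469 of them over 16106 barcodes in the short-wavelength library and 20952589 over 5707 barcodes in the white-light library. The libraries shared 26 barcodes. Rods were gated on UMIs of Gnat1, Pde6b, Nr2e3 and Cnga1, which gave 12126 short-wavelength and 4605 white-light rods with medians of 2360 and 2783 UMIs. Cones were gated on Arr3, Gnat2, Opn1sw, Opn1mw and Pde6h, which gave 388 and 156 cones with medians of 6290 and 5628 UMIs. The cone genes Gngt2, Pde6c, Gnb3 and Cngb3, which no gate used, lay at 6.24 to 110.4 UMIs per 1000000 (CPM) in rods, against 1233 to 4642 CPM in cones. The rod genes Gngt1, Pde6a, Nrl and Reep6, also outside the gates, were higher in the rod gate of both libraries, but lay in cones at a median of 25.7% (short-wavelength) and 30.4% (white light) of their rod level. In the gated Müller glia the same 4 genes lay at medians of 19.5% in each library, and UMIs of these rod genes were found in every gated class.

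The genes sit on 5 chromosomes and differ widely in length. In mm10, Rom1 is a gene of 1966 bases on the minus strand of chromosome 19 (8927391 to 8929356), and Prph2 spans 14475 bases on the plus strand of chromosome 17 (46910459 to 46924933). Tulp1 spans 13708 bases on the minus strand of chromosome 17 (28351515 to 28365222). Cdhr1 spans 20491 bases on the minus strand of chromosome 14 (37077857 to 37098347), and Rp1l1 42520 bases on its plus strand (63992506 to 64035025). Prom1 covers 108413 bases on the minus strand of chromosome 5 (43993620 to 44102032), and Rp1 409685 bases on the minus strand of chromosome 1 (3999557 to 4409241). An antisense gene, Gm16401, overlaps an exon of Prom1 on the other strand. Rom1 has close neighbours on the other strand, B3gat3 at 155 bases and Eml3 at 196 bases. All 7 are protein coding.

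Upstream sequence is shown for the rim partners Prph2 and Rom1, and for Cdhr1, the member with the opposite rod and cone order. Each line is the 250 bases before the start in RefSeq (GRCm38.p6), 5′ to 3′ on the gene's strand: chr17:46910228-46910477 (plus) for Prph2, chr19:8929357-8929606 (minus) for Rom1 and chr14:37098348-37098597 (minus) for Cdhr1. Capitals mark TAATC on either strand (GATTA on the printed one), the core bound by photoreceptor homeodomain factors.

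Prph2: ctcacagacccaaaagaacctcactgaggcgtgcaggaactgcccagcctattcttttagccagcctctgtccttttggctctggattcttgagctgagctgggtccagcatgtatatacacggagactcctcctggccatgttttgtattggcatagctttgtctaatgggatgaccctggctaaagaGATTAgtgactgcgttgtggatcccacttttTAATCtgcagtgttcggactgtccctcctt
Rom1: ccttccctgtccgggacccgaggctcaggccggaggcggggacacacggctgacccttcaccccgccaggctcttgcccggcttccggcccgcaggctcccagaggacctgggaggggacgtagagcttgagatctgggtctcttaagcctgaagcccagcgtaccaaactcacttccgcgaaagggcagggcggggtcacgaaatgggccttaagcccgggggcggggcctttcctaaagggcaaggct
Cdhr1: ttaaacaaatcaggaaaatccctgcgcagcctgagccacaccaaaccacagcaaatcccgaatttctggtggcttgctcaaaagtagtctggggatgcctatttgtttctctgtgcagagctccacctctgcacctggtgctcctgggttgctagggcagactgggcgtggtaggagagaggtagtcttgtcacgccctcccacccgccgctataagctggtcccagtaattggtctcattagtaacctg

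The Prph2 window held this core at 2 places, at bases -61 to -57 and -30 to -26 from the start, and the Rom1 and Cdhr1 windows at none. Of the windows not printed, that of start 2 of Prom1 held the core at bases -28 to -24. Those of start 1 of Prom1 and of Tulp1 held none. Over all 32851 promoter windows, 19.8% held it. The longer CRX motif TAATCC (6.25% of windows), the partial NRL motif TGCTGA (16.1%) and the partial nuclear receptor motif AGGTCA (14.0%) were searched on both strands. None was in the windows of Prph2, Rom1, Cdhr1, Tulp1 or either start of Prom1. The TAATC core was added after the CRX motif had given no match, and a match describes letters only. GC content was 49.6% for Prph2, 66.8% for Rom1 and 53.2% for Cdhr1. Rp1 and Rp1l1 are named only.

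Of the 7 genes, 5 were higher in rods than in cones and 2 were lower. Rp1, Prom1, Prph2 and Rom1 led the rod side, Rp1l1 differed little, Tulp1 lay close to parity and Cdhr1 lay furthest on the cone side. UMIs were summed per library and gate and tested with edgeR's quasi-likelihood test with library as a block, called at an adjusted p under 0.05. Against 5 of 7 higher and 2 of 7 lower, 25% of the 13313 genes tested were higher and 26.8% lower in rods, 51.8% in all. The median log2 ratio of the 7 was 0.82, beside 0.05 over all genes. The 4 sums leave 1 residual degree of freedom before moderation, and the libraries differ in light, so the spread includes any difference made by light. These log2 ratios use edgeR's TMM scaling, while CPM are scaled by total UMIs, so they are not the log2 of the printed CPM ratios. From CPM, Prom1 was at 1.12 (short-wavelength) and 1.13 (white light). Cdhr1 was at -0.67 and -0.72 by CPM, and Tulp1 at -0.017 and -0.078.

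Rp1, the axoneme protein, had 3664 CPM in rods of the short-wavelength library and 3458 CPM in rods of the white-light library, against 1148 and 1050 CPM in cones. Rods were above cones in both libraries, with a log2 ratio of 1.60 ± 0.067 (SE; edgeR adjusted p = 3.18e-121). Its paralog Rp1l1 had 483.2 and 467 CPM in rods, against 386.9 and 376.1 CPM in cones. The direction was shared by both libraries, but the log2 ratio was only 0.22 ± 0.067 (edgeR adjusted p = 0.0023), and with DESeq2 the adjusted p was 0.0514. The UMI ratio of Rp1 to Rp1l1 was thus 7.58 and 7.40 in rods, against 2.97 and 2.79 in cones. Since 3′ UMI counts carry a capture rate of their own for each gene, such a ratio is compared between classes and not read as a ratio of transcripts.

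Of the rim tetraspanins, Prph2 had 3565 CPM in rods of the short-wavelength library and 3777 CPM in rods of the white-light library, against 1612 and 1987 CPM in cones. Rom1 had 2281 and 2377 CPM in rods, against 1134 and 1367 CPM in cones. Both were higher in rods of each library, with log2 ratios of 0.95 ± 0.065 for Prph2 (edgeR adjusted p = 1.45e-46) and 0.82 ± 0.064 for Rom1 (edgeR adjusted p = 2.87e-36).

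Prom1 and Cdhr1, both at the base of the outer segment, had opposite orders. Prom1 had 1034 CPM (short-wavelength) and 999.6 CPM (white light) in rods, against 475.7 and 456.8 CPM in cones. Its TMM-scaled log2 ratio was 1.03 ± 0.067 (edgeR adjusted p = 7.52e-52). Cdhr1 had 339.1 and 346.7 CPM in rods, against 538.3 and 571.3 CPM in cones. Its TMM-scaled log2 ratio was -0.78 ± 0.064 (edgeR adjusted p = 1.80e-33). Rods were above cones for Prom1 and below them for Cdhr1 in each library. Mitochondrial RNA had a median share of 0.343% and 0.476% of UMIs in rods, against 2.79% and 3.21% in cones. Of 5 parts of rods by that share, the highest had Cdhr1 at 470.2 and 455.1 CPM. Of 5 parts by share of the nuclear RNA Malat1, the lowest had it at 538 and 480.2 CPM. With Malat1 at 3% to 5% in both classes, its log2 ratio was -0.68. The part of RNA content in the order of Cdhr1 was not tested. The UMI ratio of Prom1 to Cdhr1 was 3.05 and 2.88 in rods, against 0.88 and 0.80 in cones. It was 3.45 times as high in rods as in cones (95% interval 3.18 to 3.74) under short-wavelength light and 3.61 times (3.16 to 4.12) under white light. These and all other intervals cover counting error only.

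Tulp1, the transport protein, had 1856 CPM in rods of the short-wavelength library and 1772 CPM in rods of the white-light library, against 1878 and 1871 CPM in cones. The log2 ratio of -0.14 ± 0.062 barely passed (edgeR adjusted p = 0.0477). The call was lost in 11 of 15 tested alternatives, with adjusted p of 0.135 in DESeq2 and 0.577 when sums were scaled by total UMIs, so the call depended on the settings. Its ratio to Rp1 was 0.507 and 0.512 in rods, against 1.64 and 1.78 in cones.

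**Figure D1:**
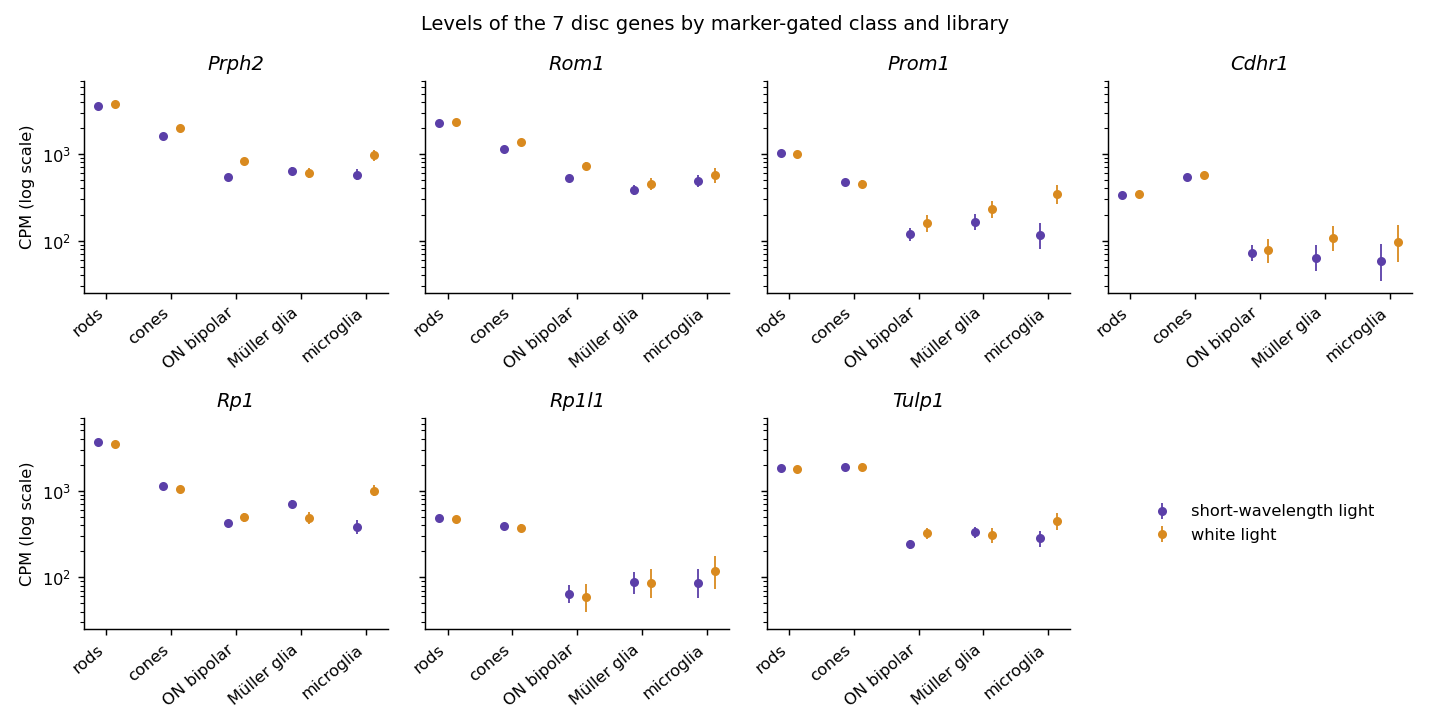
CPM on a log axis of each of the 7 genes in the gated classes of the short-wavelength (purple) and white-light (orange) libraries, with 95% Poisson intervals of the summed UMIs. Rp1, Prph2, Rom1 and Prom1 stand highest in rods, Cdhr1 highest in cones (538.3 and 571.3 CPM), and Tulp1 about level in the 2 photoreceptor classes.

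Shares of single cells with a UMI were also compared. With every cell thinned to 1000 UMIs, for which 5 and 191 rods and 1 and 5 cones were too shallow, Rp1 was seen in 95.3% and 94.6% of rods, against 57.6% and 56.3% of cones. Prom1 was seen in 62.3% and 61.4% of rods, against 36.4% and 31.8% of cones. Cdhr1 was seen in 28.4% of rods in each library, against 39.3% and 49.7% of cones. Tulp1 was seen in 82.7% and 82.2% of rods, against 83.0% and 79.5% of cones, so its white-light order was not that of its CPM. In Müller glia, which should lack these genes and had median depths of 5707 and 7715 UMIs, thinned shares were 25.6% and 38.1% for Rp1, 14.0% and 21.4% for Prom1, 9.30% and 7.14% for Cdhr1, and 26.7% and 28.6% for Tulp1. The photoreceptor shares lay above this background in each case, but the 95% intervals overlapped for Rp1 and Prom1 in white-light cones. For Rp1 they were 48.0% to 64.3% in cones and 23.6% to 54.4% in the 42 Müller glia. For Prom1 they were 24.5% to 39.9% and 10.3% to 36.8%. Before thinning, the Rp1 shares were 99.4% and 98.7% of rods, against 91.5% and 87.2% of cones.

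The cone level of each member was set beside that of rod genes in the same cones. In cones Rp1 lay at 31.3% (short-wavelength) and 30.4% (white light) of its rod level. Of the rod genes outside the gates, Pde6a lay at 22.2% and 19.8%, Nrl at 22.4% and 31.6%, and Reep6 at 29.1% and 29.2%. The Rp1 share was thus near those of these 3 rod genes, and in white light inside their range. Gngt1 stood apart, at 78.5% and 94.7%. Prom1 lay at 46.0% and 45.7%, Prph2 at 45.2% and 52.6%, and Rom1 at 49.7% and 57.5%, all above these 3 rod genes in both libraries. Rp1l1 at 80.1% and 80.5%, Tulp1 at 101.2% and 105.6% and Cdhr1 at 158.7% and 164.8% lay further above them. Gngt1 lay above Rp1, Prom1, Prph2 and Rom1 in both libraries and above Rp1l1 in white light. No test separated a cone level of its own from rod RNA in the cone droplets for any of the 7.

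**Figure D2:**
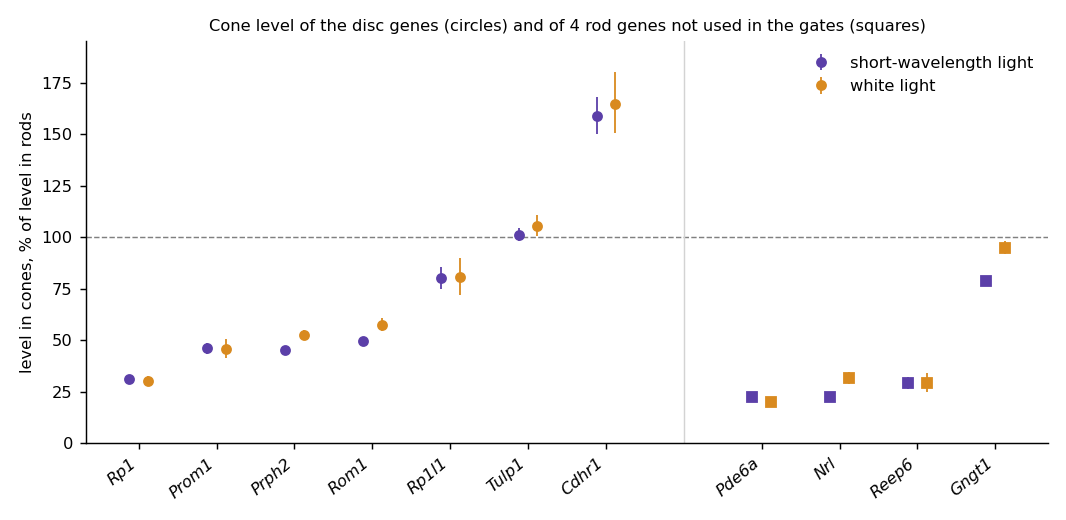
Level in cones as a percentage of the level in rods of the same library, for the 7 disc genes (circles) and 4 rod genes outside the gates (squares), with 95% intervals; the dashed line marks equal levels. Rp1, at 31.3% and 30.4%, sits near the rod genes Pde6a, Nrl and Reep6, while the other disc genes sit higher.

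Outside photoreceptors the members lay mostly near the rod genes as a share of their rod level, with some exceptions. Müller glia numbered 89 and 43 cells, and microglia 45 and 23. In Müller glia they lay at 15.8% to 19.4% (short-wavelength) and 14.1% to 30.7% (white light) of their rod level, beside 17.6% to 22.5% and 16.4% to 21.1% for the 4 rod genes. The highest Müller glia value, that of Cdhr1 in white light, was above all 4 rod genes but rested on 37 UMIs. In microglia the members lay at 10.47% to 21.6% and 23.9% to 34.3%, beside 12.3% to 19.3% and 22.0% to 31.4% for the rod genes. In ON bipolar cells Rom1 stood above all 4 rod genes in both libraries. It had 527.7 CPM (486.5 to 571.5) in 163 short-wavelength cells and 721.7 CPM (648.7 to 800.5) in 60 white-light cells, 23.1% and 30.4% of its rod level. The highest rod genes there were at 15.6% and 23.4%. Prph2 was at 15.1% and 21.8%, and Cdhr1 at 21.4% and 22.2%, so Cdhr1 stood above the rod genes in short-wavelength cells only. The ratio of Prph2 to Rom1 was 1.02 (0.909 to 1.14) and 1.14 (0.987 to 1.32) in ON bipolar cells, against 1.56 and 1.59 in rods. This contrast was singled out after its values were seen, and whether ON bipolar cells transcribe Rom1 was not tested.

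Other genes of the outer segment and cilium were read from lists, beside 25% higher and 26.8% lower in rods over all genes tested. The median log2 ratio over all genes was 0.05. Of 14 measured disc and outer segment membrane genes, 11 were higher in rods, 2 were lower and 1 did not pass, with a median log2 ratio of 1.34. The largest were the rod phosphodiesterase subunits Pde6b (2.28) and Pde6a (2.14), the guanylate cyclase Gucy2f (2.23) and the channel subunits Cngb1 (2.13) and Cnga1 (1.97). Pde6b and Cnga1 were used to gate the rods, so their difference follows from the gate. The count and the median of this list include both, so they are in part fixed by the gate. Of 24 axoneme and connecting cilium genes, 14 were higher in rods, 1 lower and 9 did not pass, with a median of 0.34. They included the ciliary GTPase Arl13b (1.66) and the transport subunit Ift88 (1.27), while the prenyl-binding protein Pde6d was lower in rods (-1.14). The kinesin Kif17 passed on a single UMI in cones, at 3.85 and 2.93 CPM in rods against 0.409 and 0 CPM in cones. Of 15 paralogs of the members 11 could be tested, with 2 higher, 4 lower and a median of -0.22. The 2 with the largest values had few UMIs. Cd9 (2.65) passed on 1 UMI in cones, at 2.15 and 1.69 CPM in rods against 0.409 and 0 CPM in cones. Tulp3 (-1.57) had 3.17 and 2.68 CPM in rods against 9.82 and 5.45 CPM in cones. Tub, a relative of Tulp1, was higher in rods (1.06), and the tetraspanins Tspan3 (-1.23) and Cd81 (-0.97) were lower.

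The ratio of the rim tetraspanins was close to the same in both photoreceptors. Prph2 to Rom1 was 1.56 (1.55 to 1.58) in short-wavelength and 1.59 (1.57 to 1.61) in white-light rods, against 1.42 (1.35 to 1.49) and 1.45 (1.35 to 1.56) in cones. The rod ratio was 1.10 times the cone ratio (1.05 to 1.16) under short-wavelength light and 1.09 times (1.02 to 1.18) under white light. The difference was not kept among cells of like Malat1 content. Malat1 is a noncoding RNA held in the nucleus, and its median share of UMIs was 5.72% and 5.16% in rods, against 4.11% and 3.31% in cones. Among 2873 short-wavelength and 1532 white-light rods, and 210 and 74 cones, with a Malat1 share of 3% to 5%, Prph2 to Rom1 was 1.43 and 1.55 in rods, against 1.43 and 1.55 in cones. The rod ratio over the cone ratio was then 0.999 and 1.004. This range was chosen after the data were seen, and no interval was computed for that comparison. In the 1 of 5 parts of rods with the most mitochondrial RNA (median shares 2.63% and 2.42%), Prph2 to Rom1 was 1.23 and 1.29. That was below the 1.42 and 1.45 of all cones, whose median mitochondrial shares were 2.79% and 3.21%. The order of rods and cones in Prph2 to Rom1 thus depended on which share was made alike.

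Within rods, that ratio moved further than between rods and cones. Rods of both libraries were divided at common limits into 5 parts by Malat1 share, with median shares of 3.28% and 3.24% in the lowest part and 7.34% and 7.25% in the highest. From the lowest part to the highest, Prph2 to Rom1 was 1.21, 1.54, 1.71, 1.80 and 1.78 in the short-wavelength library. In the white-light library it was 1.29, 1.70, 1.86, 1.83 and 1.96. The step between the lowest part and the next was the widest in each library. Rom1 had 1733 CPM in the highest part, against 4303 CPM in the lowest, under short-wavelength light, and 1580 against 4066 CPM under white light. Prph2 had 3090 against 5210 CPM, and 3091 against 5248 CPM. Both were lower where Malat1 was high, Rom1 by 2.48-fold and 2.57-fold and Prph2 by 1.69-fold and 1.70-fold.

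The other members divided into those that followed the tetraspanins and those that did the reverse. Cdhr1 had 297.9 CPM in the highest part, against 538 CPM in the lowest, under short-wavelength light, and 298.1 against 480.2 CPM under white light. Rp1 had 3827 against 2902 CPM, and 3705 against 2865 CPM. Rp1l1 had 509.3 against 406.3 CPM, and 520.3 against 418.5 CPM, so both axoneme genes were higher where Malat1 was high. Prom1 changed least among the upward ones, with 1060 against 907.6 CPM and 981.7 against 954.5 CPM. Tulp1 had 1825 against 2073 CPM and 1786 against 1881 CPM. Parts made by mitochondrial share ran the other way: Prph2 to Rom1 was 1.23 and 1.29 in the part with the most mitochondrial RNA, against 1.79 and 1.90 in the part with the least. Over parts made by UMIs per cell, the ratio stayed between 1.39 and 1.68.

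**Figure D3:**
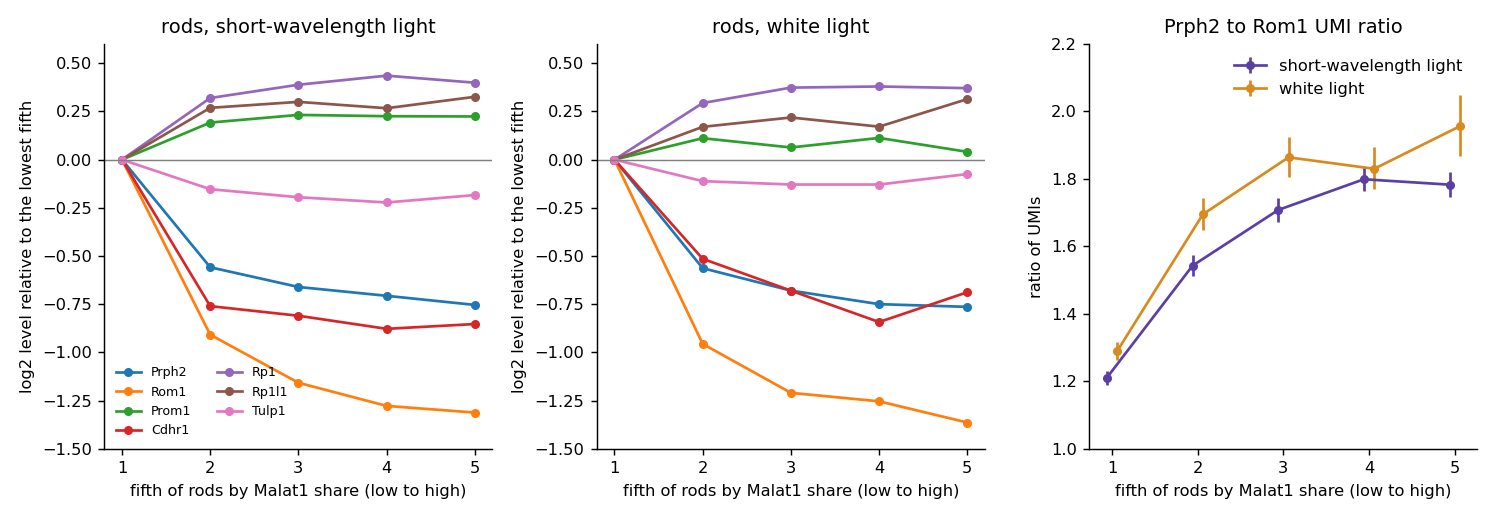
Left and middle, log2 level of each gene in 5 parts of the rods by Malat1 share of UMIs, relative to the lowest part, for the short-wavelength and white-light libraries; right, the ratio of Prph2 to Rom1 UMIs in the same parts with 95% intervals. Rom1, Cdhr1 and Prph2 go down and Rp1 and Rp1l1 up as the Malat1 share goes up, and the ratio climbs to 1.78 and 1.96.

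The order of the members in this shift went with their gene lengths in outline, but not throughout. On the log2 scale with 5 CPM added, the highest over the lowest part was -1.31 and -1.36 for Rom1, the shortest gene, and 0.40 and 0.37 for Rp1, the longest. Prph2 (-0.75 and -0.76), Cdhr1 (-0.84 and -0.68) and Tulp1 (-0.18 and -0.07), with lengths of 13.7 to 20.5 kb, lay between them. Tulp1, the shortest of these, moved least. Rp1l1 (0.32 and 0.31) and Prom1 (0.22 and 0.04) were the other longer genes, and Prom1 lay below the shorter Rp1l1 in both libraries. The 6690 protein-coding genes measured in rods had the same trend. Genes under 5 kb had median shifts of -0.49 and -0.47 (n = 612), and genes of 5 to 20 kb -0.06 and -0.12 (n = 1883). Genes of 20 to 100 kb had 0.25 and 0.20 (n = 3174), and genes of at least 100 kb 0.46 and 0.38 (n = 1021). Spearman's rank correlation of length and shift was 0.56 and 0.53 across these genes, which share their cells, libraries and totals, so it is a description. Rom1, Prph2, Cdhr1, Prom1 and Rp1 lay below the median of their length class in both libraries, and Rp1l1 above it. Whether reads in introns were counted is not given in the sources used here, and its part in the shift was not tested.

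**Figure D4:**
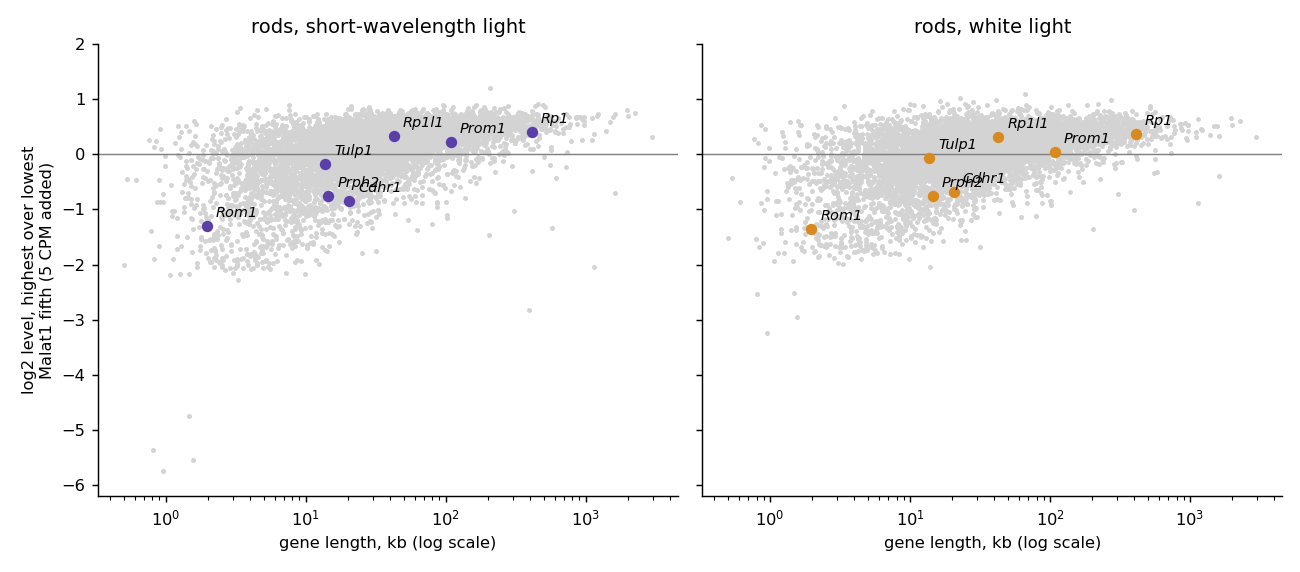
Gene length in kb (log axis) against the log2 level in the highest over the lowest Malat1 part of rods, for 6690 protein-coding genes (grey) and the 7 disc genes (coloured), in each library. Rom1, at 1.97 kb, sits lowest of the 7 and Rp1, at 409.7 kb, highest.

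None of the 7 differed between lights past the threshold used, in rods or in cones. In cones, however, Prph2 and Rom1 were called lower under short-wavelength light after thinning to 1000 UMIs. Their log2 ratios were then -0.38 and -0.48, with 226 genes called in all. They were also called by the mean over cells, on fold alone (-0.46 and -0.50), where 2712 of 7220 genes were called. A gene was called when its CPM ratio of short-wavelength over white light was at least 25% above 1, or at 0.8 or below, with a 95% interval that left out 1. By that rule 0 of 7 members were called in rods, beside 1.82% of 7250 genes, and 0 of 7 in cones, beside 8.21% of 7220 genes. In rods the 7 together made up 13222 CPM in the short-wavelength library and 13197 CPM in the white-light library. In cones their sum was 7172 and 7679 CPM.

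In rods the ratio of short-wavelength over white light was 0.944 (0.935 to 0.953) for Prph2 and 0.960 (0.948 to 0.972) for Rom1. It was 1.06 (1.05 to 1.07) for Rp1, 1.05 (1.03 to 1.06) for Tulp1 and 1.03 (1.02 to 1.05) for Prom1. Rp1l1 was at 1.03 (1.01 to 1.06), and Cdhr1 at 0.978, with an interval that included 1 (0.947 to 1.01). These shifts, all under 1.10-fold, did not all hold among rods of like Malat1 share. The lowest Malat1 part held 2050 of 12126 short-wavelength rods, against 1296 of 4605 white-light rods. Within the 5 parts Prph2 was at 0.993 to 1.02, with 1 inside every interval. Rom1 was at 1.04 to 1.10 with every interval above 1, so its direction turned round. Over 5 parts by UMIs per cell, Prph2 stayed below 1, at 0.873 to 0.998, and Rom1 was at 0.855 to 1.06. By mitochondrial share the 5 parts had Prph2 at 0.930 to 1.03 and Rom1 at 0.978 to 1.09. Both were lowest in the part with the most mitochondrial RNA, where Prph2 was at 0.930 (0.911 to 0.948). Rp1 was at 1.01 to 1.05 within the Malat1 parts, and Tulp1 at 1.02 to 1.10. Prom1 ranged over these parts from 0.951 to 1.08, Cdhr1 from 0.945 to 1.12 and Rp1l1 from 0.971 to 1.04. In the lowest Malat1 part Prom1 was at 0.951 (0.911 to 0.992) and Cdhr1 at 1.12 (1.06 to 1.19), each on the other side of 1 from its value over all rods. Prph2 to Rom1, at 0.983 (0.968 to 0.999) over all rods, was lower under short-wavelength light in each of the 5 Malat1 parts. By UMIs per cell it was higher in the lowest part (1.43 against 1.39) and the highest (1.60 against 1.58), and lower in the other 3.

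In cones the tetraspanins stood furthest from parity. Prph2 was at 0.811 (0.767 to 0.858) and Rom1 at 0.829 (0.776 to 0.887), while Rp1 was at 1.09 (1.02 to 1.18). Prom1 (1.04), Cdhr1 (0.942), Rp1l1 (1.03) and Tulp1 (1.004) had intervals that included 1. Prph2 and Rom1 were lower to a like degree, and the light ratio of Prph2 to Rom1, 0.978 (0.897 to 1.07), showed no difference detectable at this depth. Among the rod genes, Nrl had 325.2 CPM in cones of the short-wavelength library and 473.2 CPM in cones of the white-light library, a ratio of 0.687. Pde6a had 371 and 321.6 CPM in these cones and Reep6 192.6 and 190.8 CPM, while Gngt1 had 3325 and 4000 CPM. The 4 gate genes of rods were all lower in the short-wavelength cones: Gnat1 with 822.9 against 1159 CPM, Nr2e3 with 232.7 against 291.1 CPM, Cnga1 with 331.7 against 403.4 CPM and Pde6b with 354.6 against 390.3 CPM. Among cones with at least 7000 UMIs (163 and 60 cells) Prph2 was at 0.933 (0.867 to 1.004) and Rom1 at 0.975 (0.891 to 1.07), with Nrl at 0.811 and Gnat1 at 0.893. Among cones under 3000 UMIs (77 and 53 cells) they were at 0.746 and 0.647, with Nrl at 0.852 (0.613 to 1.19) and Gnat1 at 0.571 (0.462 to 0.706). Among cones with 3000 to 7000 UMIs (148 and 43 cells) Prph2 was at 0.652 and Rom1 at 0.708, with Nrl at 0.478 and Gnat1 at 0.519. Classes by S-opsin share used only cones with at least 10 opsin UMIs, so they leave out some cones of each library. Where S-opsin held at least 90% of opsin UMIs (75 and 40 cones) Prph2 was at 0.707 and Rom1 at 0.673, with Nrl at 0.572 and Gnat1 at 0.569. Where it held between 10% and 90% (169 and 46 cones) they were at 0.944 and 1.04, with Nrl at 0.931 and Gnat1 at 0.942. Below that (125 and 40 cones) they were at 0.875 and 0.917, with Nrl at 0.702 and Gnat1 at 0.81. Of the rod genes, only Nrl and Gnat1 were read within these classes. Pde6a and Reep6, not lower in short-wavelength cones as a whole, were not read there. Neither were Gngt1 and the other gate genes of rods, which were lower. Gnat1 is itself a gate gene, so its UMIs enter the cone share by which cones were gated. The part of rod RNA in the lower Prph2 and Rom1 of short-wavelength cones was not tested.

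**Figure D5:**
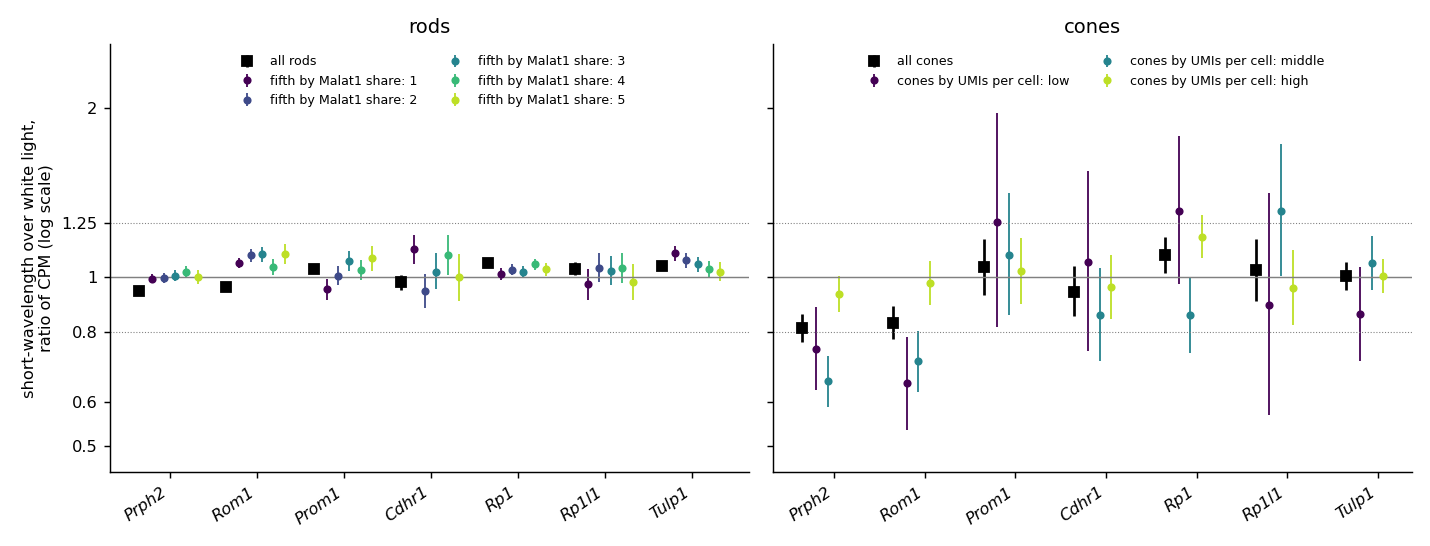
Ratio of CPM under short-wavelength over white light (log axis, 95% intervals) for the 7 genes, in rods (left, all cells and 5 parts by Malat1 share) and cones (right, all cells and 3 classes by UMIs per cell); dotted lines mark the size needed for a call. Rod ratios of Prph2 sit at 0.993 to 1.02 within parts against 0.944 over all rods, and cone ratios of Prph2 and Rom1 near 1 only in the deepest class.

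The lists of other genes were read against the same shares of all genes, 1.82% called in rods and 8.21% in cones. In rods 0 of 14 disc and outer segment membrane genes, 0 of 22 axoneme and cilium genes and 0 of 6 paralogs were called. In cones 1 of 14 disc genes was higher (Gucy2f at 1.39) and 1 was lower (Guca1b, a guanylate cyclase activator, at 0.752). Bbs1 (1.72) and Cc2d2a (1.37) were the 2 called cilium genes of 21 measured, both higher under short-wavelength light.

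Genes with profiles most like each member were found over 10 points, the 5 gated classes in each library, among 4142 genes with at least 50 CPM in rods. Likeness is the root mean square distance of centred log2(CPM + 10) profiles, where 0 is identical. Rp1l1 had the nearest neighbours, AI847159 (0.10) and Rgs9 (0.132), the GTPase-activating protein of phototransduction. Tulp1 was nearest to Rcvrn, the calcium sensor recoverin (0.164), Fabp12 (0.179) and Rgs9 (0.182). Rp1 was nearest to Pdzph1 (0.138) and Pex5l (0.145), and Prph2 had Bicdl1 (0.145) and the phosphatase Ppef2 (0.150) among its 3 nearest. Rom1 lay next to Rrp1b (0.189) and Bicdl1 (0.20), Prom1 next to the dopamine receptor Drd4 (0.189) and the chloride channel Ano2 (0.194), and Cdhr1 next to A930001M01Rik (0.202) and Krt18 (0.224). Prph2 and Rom1 were each other's nearest member, at 0.234, but neither was among the 3 genes nearest to the other.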

How the data were processed

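Retina of mice under 2 light conditions was profiled by 10x Genomics 3′ single-cell RNA sequencing, with 1 library each. Whole UMI counts, not normalized, were deposited for each gene in each barcode. Per the file headers they came from Cell Ranger 9.0.0. The submitters' processing notes give mm10 as the build and list Seurat and edgeR among the tools. The chemistry version and the treatment of intronic reads are not given in the sources used here.

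Barcodes under 300 genes or over 20% mitochondrial UMIs were dropped, and Scrublet (scanpy 1.11.5) scores were used to remove the highest 0.8% per 1000 barcodes: 12.9% of barcodes in the short-wavelength library and 4.55% in the other. Cones needed at least 10 UMIs from 3 cone genes and a cone share of at least 50% of rod and cone marker UMIs; rods needed 3 rod UMIs and a cone share of at most 10%; both were limited to 3 UMIs of any other class list. Outside the gates of rods, cones and 4 other classes lay 1212 and 548 barcodes. No deposited cell annotation was used.

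Rods and cones were compared on 4 summed columns with edgeR 4.0.16 (R 4.3.3; TMM, filterByExpr, library block, Benjamini-Hochberg over all genes), with the SE as the log2 ratio over the root of its F statistic. Light ratios are CPM ratios with exact conditional binomial intervals, for genes with at least 50 UMIs and a mean of 20 CPM; their log2 values add 5 CPM. Shares of cells carry exact Clopper-Pearson intervals in the tables behind the text. The steps were tested on simulated counts. The 7 genes and all lists were chosen with earlier results of these data known. Named genes are the members, up to 5 of each list with the largest values, and the 3 most alike profiles. Promoter sequences are RefSeq's (GRCm38.p6), matched by symbol for 5 of 7 members, and gene positions GENCODE's for mm10. Alternatives covered gates, doublets, cell filters, depth, scaling, pseudocounts, count filters, DESeq2 1.42.0 and the library block. One gene of the marker and outer segment lists, and one of the alike profiles, are not reported here.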

Additional observations from a re-analysis of the deposited data

How the results depend on the processing

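Of the 7 rod and cone directions, Rp1, Prom1, Prph2, Rom1 and Cdhr1 kept direction and call in all 15 tested alternatives each, and direction in each library alone. Tulp1 kept its sign but lost its call in 11, and Rp1l1 in 2, DESeq2 and thinning to 1000 UMIs (adjusted p = 0.0514 and 0.170). Members called were 5 to 7 throughout. Over all genes, the 6900 calls came to 3818 with DESeq2 and 3050 after thinning, which leaves fewer UMIs. In rods no alternative called a member between lights, while the 132 genes called came to 313 among cells with a Malat1 share of 3% to 5% and 315 after thinning. In cones 2 members, Prph2 and Rom1, were called lower under short-wavelength light after thinning (log2 -0.38 and -0.48), where the 593 genes called came to 226. They were also called by the mean over cells with fold alone (-0.46 and -0.50), where 2712 of 7220 genes were called. The rod over cone ratio of Prph2 to Rom1 was 0.999 (short-wavelength) and 1.004 (white light) at a Malat1 share of 3% to 5%, and 0.982 under white light when gates used the held-out genes; other alternatives gave 1.08 to 1.13 and 1.03 to 1.17. At that Malat1 share the light ratios in rods turned to log2 0.11 for Rom1, -0.03 for Prom1 and 0.03 for Cdhr1. Leaving out droplets with at least 1% haemoglobin changed no member's call but Tulp1's (adjusted p = 0.0746). The mean over cells could not be fitted in edgeR. No paired analysis of the lights was possible because each light condition has 1 library. Rods and cones were paired within library by the block. Without it the edgeR adjusted p of Rp1 was 1.5e-10, against 3.18e-121 with it. Malat1 and haemoglobin settings and cone classes were chosen after seeing the data.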
